A study of Rattus norvegicus with 6 samples.

Results

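The matrilins are a small family of secreted matrix proteins, and this account follows their transcripts, together with those of the cartilage matrix genes Comp and Acan, in the renal cortex of rats given p-nitroanisole or vehicle. Members were the array probes whose accession belongs to Matn1, Matn2, Matn3, Matn4, Comp or Acan in the RefSeq gene table. This gave 5 of the 61537 probes on the array, 2 for Matn1 and 1 each for Matn4, Comp and Acan. No probe was matched to Matn2 or Matn3 by accession, and these 2 genes were not analysed here. Matn1 was chosen by its log2 difference between these same groups, among the largest falls on the array, and the others by their relation to it. The Matn1 difference is therefore described below with no test.

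The treated group was 3 male Sprague-Dawley (Crl:CD(SD)) rats given p-nitroanisole, a nitrobenzene that carries a methoxy group, at 500 mg/kg per day for 4 weeks. The vehicle group was 3 male rats of the same strain given corn oil for 4 weeks. All rats were bought at 5 weeks of age, were kept on the same basal diet and, per the labels' protocols, are biological replicates, with 1 array of Cy3-labelled cRNA for each animal.

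Matrilins are built from von Willebrand factor A domains and epidermal growth factor repeats, joined through a coiled coil into oligomers. They connect collagen fibrils and proteoglycans into filaments. Matrilin-1 and matrilin-3 are known mainly from cartilage, whereas matrilin-2 and matrilin-4 occur in a wider range of tissues. Aggrecan, the product of Acan, is the large proteoglycan that holds water in cartilage, and COMP is a thrombospondin family member that binds collagen and matrilins. None of these genes is a usual marker of a renal cell type.

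Levels are given as the processed spot intensity in percent of the 75th percentile of the same array, which was between 877 and 1022 intensity units. Between 66.4% and 69.2% of the probes on an array were well above background by the scanner software's own call. A level can be compared between animals for 1 probe, but not between probes. A summed level of a gene list, given below for some lists, weights each gene by the brightness of its probe. It can be compared between animals only and does not measure the amount of a cell type. The arrays carried strong transcripts of proximal tubule cells, with all 8 listed markers tested and a summed level of 150987% to 159640% in treated and 144919% to 146279% in vehicle animals. The 4 listed markers of adrenal cortex (Cyp11b1, Cyp11b2, Mc2r and Star) were not well above background on any array. Of 7 chondrocyte markers with a probe matched by accession, 5 were well above background on every array: Col2a1, Col9a1, Col11a2, Cytl1 and Chad. Hapln1, which encodes a link protein of aggrecan, and Cnmd, which encodes chondromodulin, were not well above background on any array.

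Matn1 transcript was 10.9-fold lower after p-nitroanisole on its brighter probe and was lower on its second probe too. On the brighter probe, A_44_P1036769, the level was 6.51%, 11.6% and 9.71% in treated replicates 1, 2 and 3, against 71.6%, 125% and 106% in vehicle replicates 1, 2 and 3. The groups were far apart, since the lowest vehicle animal was 6.20 times as high as the highest treated animal. All 6 spots were well above background. The mean level was 9.26% ± 2.55 in treated and 101% ± 27.3 in vehicle animals (SD, n = 3 each). The log2 difference was -3.45 (SE 0.29 in the limma fit).

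The second Matn1 probe, A_64_P007550, gave a dimmer signal with the same direction. Its level was 2.56%, 1.46% and 2.33% in treated replicates 1, 2 and 3, against 10.2%, 17.8% and 15.8% in vehicle replicates 1, 2 and 3. The groups did not overlap, the lowest vehicle animal being 3.97 times as high as the highest treated animal. The log2 difference was -2.78 (SE 0.29), a level 6.89-fold lower with treatment. Treated replicate 2 was not well above background on this probe, and the other 2 treated animals were close to the limit of detection: the dimmest spot called well above background had a level of 1.80% to 2.22% on the treated arrays.

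Both probes therefore placed every treated animal below every vehicle animal. Among vehicle animals they gave the same order, replicate 1 lowest and replicate 2 highest. Among treated animals the order differed, with replicate 1 lowest and replicate 2 highest on the brighter probe, and replicate 2 lowest and replicate 1 highest on the dimmer one. The highest animal of a group was 1.75 to 1.77 times the lowest, in each group and on each probe. The scanner software's error of a single Matn1 spot was 10.0% to 11.9% of its signal on the brighter probe, in both groups. On the dimmer probe it was 21.7% to 40.4% in treated and 10.3% to 10.9% in vehicle animals.

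**Figure D1:**
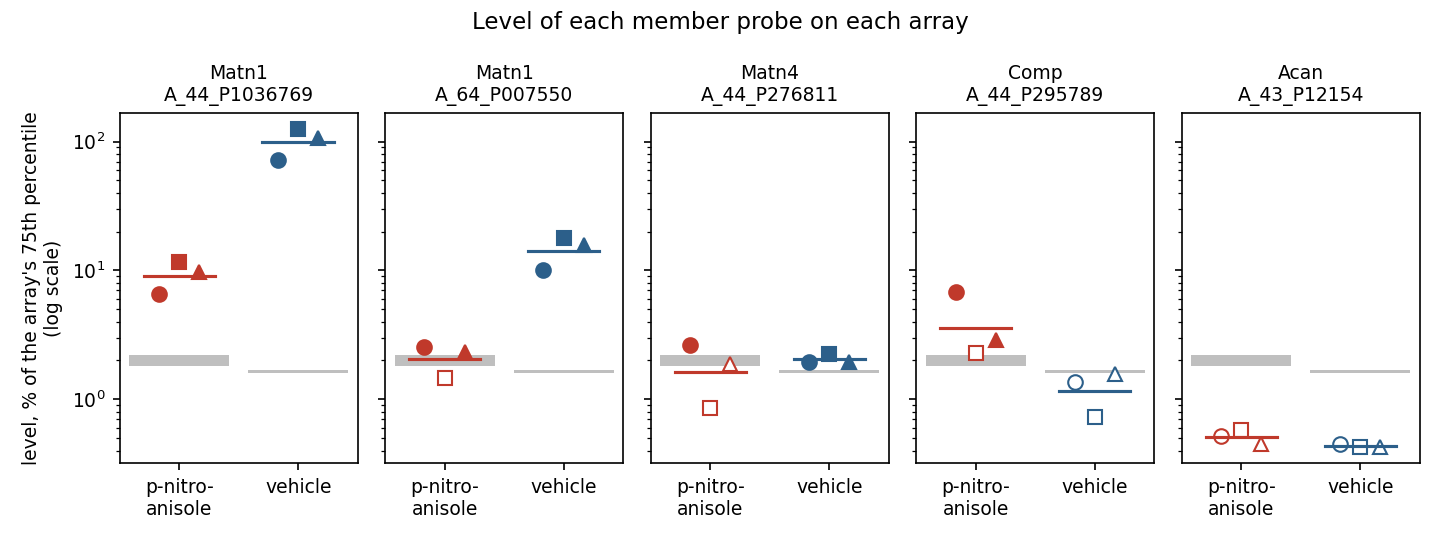
Level of the 5 member probes on each array, in percent of the array's 75th percentile on a log scale, with p-nitroanisole animals in red and vehicle animals in blue (circle, square and triangle for replicates 1, 2 and 3). Filled symbols were well above background and open symbols were not, lines are group means of log2 levels, and grey bands span the dimmest well-above-background spot of the 3 arrays. Matn1 is separated between the groups on both probes, Comp is open on all 3 vehicle arrays and Acan on all 6 arrays.

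The signal on the brighter Matn1 probe was large against its surroundings in vehicle animals. The unprocessed spot was 2.14 to 3.03 times its local background in treated and 14.1 to 27.3 times in vehicle animals. On the dimmer probe it was 1.20 to 1.45 times the local background in treated and 3.05 to 4.34 times in vehicle animals. Of the 41219 probes tested, 1 had a lower log2 difference than the brighter Matn1 probe, and the dimmer Matn1 probe came next after it. These ranks use the contrast for which Matn1 was chosen, and the dimmer probe entered the tested set only through the vehicle arrays.

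Matn1 also varied more between animals of a group than most transcripts. The SD of its log2 level on the brighter probe was 0.42 in treated and 0.41 in vehicle animals, against medians over the tested probes of 0.13 in treated and 0.10 in vehicle animals. In the treated group 90.9% of the tested probes had a smaller SD, and in the vehicle group 93.9% did. The RNA is from whole cortex, so fewer cells that hold Matn1 transcript and less transcript per cell cannot be told apart.

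The 3 vehicle arrays and treated replicates 1 and 2 shared slide 1, and treated replicate 3 was alone on slide 2. Within slide 1 the log2 difference of Matn1 was -3.51 (SE 0.35) on the brighter and -2.87 (SE 0.35) on the dimmer probe. A background correction of the median signals by normexp, run with a chosen offset of 50 added to every spot, gave smaller differences. They were -2.67 (SE 0.21) on the brighter and -1.02 (SE 0.14) on the dimmer probe.

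**Figure D2:**
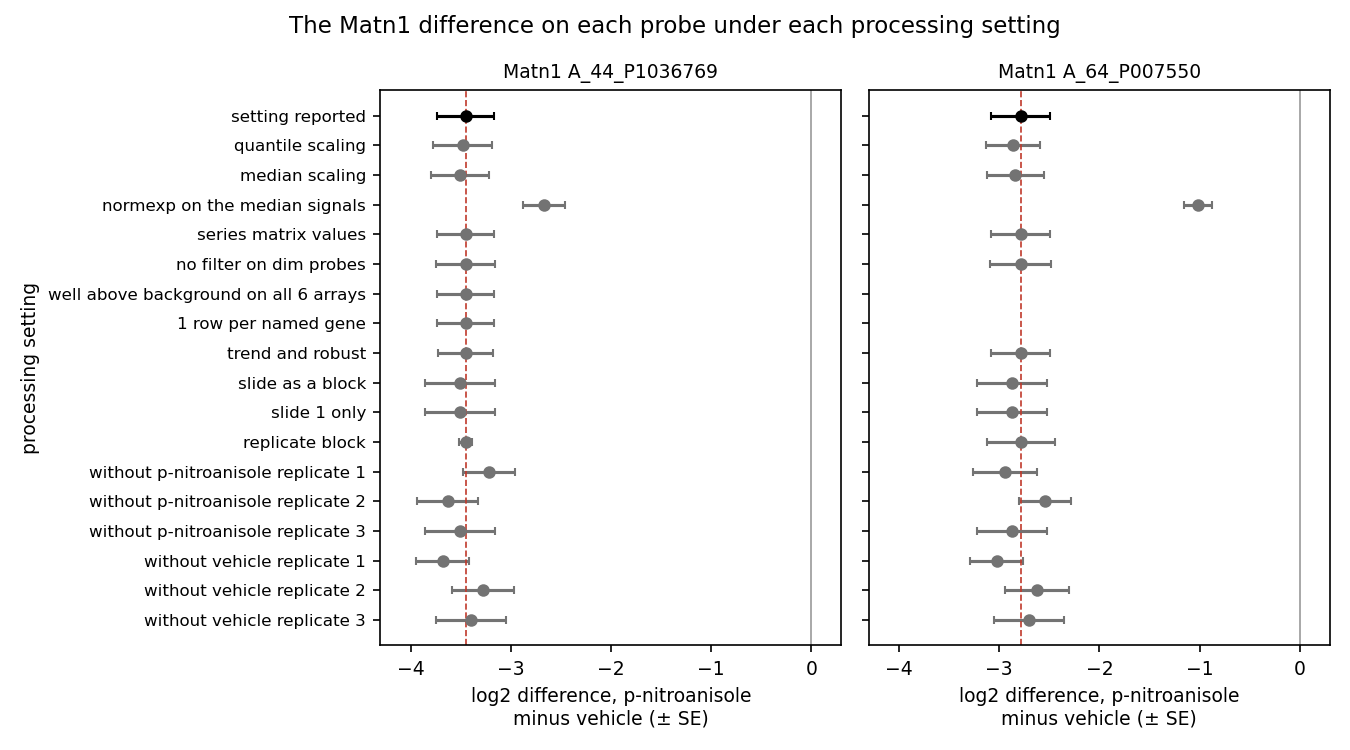
Log2 difference of Matn1 (p-nitroanisole minus vehicle, ± SE of the limma fit) on each probe under the reported setting and each alternative. The dashed red line marks the reported value, -3.45 on the left and -2.78 on the right; normexp lies closest to 0 on both probes, and 2 settings hold no row for the dimmer probe.

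Matn4, the other matrilin with a probe matched by accession, had a difference smaller than its standard error. Matn4 encodes matrilin-4, which is made in a range of tissues. Its probe A_44_P276811 read 2.63%, 0.860% and 1.87% in treated replicates 1, 2 and 3, against 1.95%, 2.26% and 1.93% in vehicle replicates 1, 2 and 3. The groups overlapped, with treated replicate 1 above and replicates 2 and 3 below all vehicle animals. The spot was well above background on 1 of 3 treated and 3 of 3 vehicle arrays, so it entered the tested set only through the vehicle arrays. The log2 difference was -0.33 (SE 0.40, n = 3 per group), with an adjusted p of 0.742 by limma and Benjamini-Hochberg over all probes. It rested on treated replicate 2, since without that animal the difference was 0.12 (SE 0.18). A signal this close to background limits what a difference on this probe can show.

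Limma called 0 of the 1 tested probe of the members other than Matn1 (0 at an unadjusted p under 0.05). Over the array it called 30 of 41219 tested probes, 0.0728%, of which 21 (0.0509%) were higher and 9 (0.0218%) lower with treatment, and 5539 had an unadjusted p under 0.05. The groups did not overlap in 21.9% of the tested probes.

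Comp read higher in every treated animal than in every vehicle animal. It encodes cartilage oligomeric matrix protein, which assembles as a pentamer and binds collagens. On probe A_44_P295789 the level was 6.78%, 2.28% and 2.90% in treated replicates 1, 2 and 3, against 1.37%, 0.728% and 1.58% in vehicle replicates 1, 2 and 3. The lowest treated animal was 1.44 times the highest vehicle animal. The spot was well above background on 2 of 3 treated arrays and on 0 of 3 vehicle arrays, so it did not enter the tested set. Set against the dimmest well-above-background spots of the vehicle arrays, the treated mean was about 2.18-fold higher. This is not a strict lower bound. The treated mean includes replicate 2, which at 2.28% was not well above background although the dimmest such spot on its array was 2.22%. With no filter on dim probes, the log2 difference was 1.61 (SE 0.50) with a limma adjusted p of 0.220. That fit called 2 of 61537 probes (0.00325%), and the groups did not overlap in 27.8% of all probes. Treated replicate 1 was the highest animal. The difference of Comp did not pass the test in that fit, in which all its vehicle spots were below the limit of detection.

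Acan, the gene of aggrecan, was not well above background on any of the 6 arrays. Its probe A_43_P12154 read 0.517%, 0.580% and 0.450% in treated replicates 1, 2 and 3, against 0.448%, 0.424% and 0.428% in vehicle replicates 1, 2 and 3. The scanner software's error of these spots was as large as the signal, 100% to 101% of it. All 3 treated readings lay above the 3 vehicle readings, and with no filter on dim probes the groups did not overlap in 27.8% of all probes. Before scaling the Acan readings overlapped, with 4.30 intensity units in treated replicate 3 and 4.58 in vehicle replicate 1. No fold is given for Acan, because both groups lay below the limit of detection. Its transcript was not detectable at the sensitivity of these arrays.

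The wider cartilage matrix was then examined through 8 lists with 50 genes in all. Of these, 42 had a probe matched by accession and 36 were tested, each by its tested probe with the highest mean level. Limma called 0 of the 36 (8 at an unadjusted p under 0.05), with 17 higher and 19 lower and a median log2 difference of -0.03. Over all 12207 tested named genes, limma called 13, 1699 (13.9%) had an unadjusted p under 0.05 and the median log2 difference was 0.00406. The differences of the 36 genes ran from -0.47 to 0.56, all nearer to 0 than either Matn1 probe. The groups did not overlap in 11 of the 36 (30.6%), against 23.3% of the tested named genes.

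Collagens that form cartilage fibrils were measured without a common direction, 4 of 5 tested genes having a positive difference (median 0.10, 0 called) and 3 of 5 with quantile or median scaling. Col11a2, a chain of the thin type XI fibrils, had a level of 89.3% ± 5.61 in treated and 63.8% ± 23.4 in vehicle animals (SD, n = 3 each), a log2 difference of 0.56 (SE 0.30, limma adjusted p = 0.468). Without vehicle replicate 3 it was 0.22. Col9a2, a chain of the type IX collagen on fibril surfaces, had the largest negative difference at -0.28 (SE 0.15; -0.12 within slide 1). Col6a2, a chain of the beaded-filament type VI collagen to which matrilins bind, was the 1 type VI gene with a probe matched by accession. It was at 0.09 (SE 0.08), and at 0.0437 without vehicle replicate 3 and 0.15 without p-nitroanisole replicate 2.

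Link proteins and small proteoglycans had 8 tested genes of 11, 5 with a positive difference (median 0.11, 0 called). Chad, the gene of the collagen-binding protein chondroadherin, averaged 6.76% ± 0.522 in treated and 5.25% ± 0.167 in vehicle animals (SD, n = 3 each), a log2 difference of 0.36 (SE 0.08, limma adjusted p = 0.173). Fmod, the gene of the fibril-binding proteoglycan fibromodulin, was at 0.32 (SE 0.17; 0.16 without p-nitroanisole replicate 1). On the other side, Omd, the gene of osteomodulin, averaged 63.1% ± 2.47 in treated and 78.8% ± 6.27 in vehicle animals (SD, n = 3 each), a log2 difference of -0.32 (SE 0.08, limma adjusted p = 0.220). Hapln3, the gene of a hyaluronan-binding link protein, was at -0.29 (SE 0.09, limma adjusted p = 0.261). The groups did not overlap for Chad, Omd and Hapln3, 3 of the 8 tested genes, against 23.3% of all tested named genes. Hapln1, Lum and Epyc were not well above background on any array.

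The nearest relatives of Acan and Comp showed no called gene either. Of the hyaluronan-binding proteoglycans related to aggrecan, Vcan, the gene of versican, was at 0.17 (SE 0.29; -0.08 within slide 1) and Bcan, the gene of brevican, at 0.13 (SE 0.08; 0.0707 without vehicle replicate 3). Of 3 tested thrombospondins Thbs4, which is closely related to Comp, averaged 64.2% ± 7.95 in treated and 89.1% ± 10.2 in vehicle animals (SD, n = 3 each), a log2 difference of -0.47 (SE 0.13, limma adjusted p = 0.234). Thbs1, an activator of latent TGF-beta, was at 0.25 (SE 0.27), and at 0.0240 without vehicle replicate 3 and 0.54 without vehicle replicate 2.

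Other secreted proteins share the A domain with the matrilins. Vwa1, whose product WARP is a matrix protein of cartilage and basement membranes, averaged 368% ± 17.7 in treated and 493% ± 7.07 in vehicle animals (SD, n = 3 each). Its groups did not overlap, and its log2 difference of -0.42 (SE 0.07) had a limma adjusted p of 0.105, the smallest of the 36 genes; limma with a trended and robust variance called it (adjusted p = 0.0337). Coch, the gene of the inner ear protein cochlin, was at 0.51 (SE 0.29) and Vwa2 at 0.18 (SE 0.12). Without vehicle replicate 3 they were at 0.24 and 0.29, and without vehicle replicate 2 at 0.80 and 0.10.

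Matrix proteases and their inhibitors had 8 tested genes of 10, 6 with a negative difference (median -0.06, 0 called); 7 were negative with quantile or median scaling, and 4 within slide 1, without p-nitroanisole replicate 3 and without vehicle replicate 1. Mmp13, a collagenase of cartilage, was at -0.40 (SE 0.19; -0.22 without p-nitroanisole replicate 2) and was well above background on 1 of 3 treated arrays. Timp3, an inhibitor of aggrecanases, averaged 215% ± 22.8 in treated and 275% ± 4.98 in vehicle animals (SD, n = 3 each), a log2 difference of -0.36 (SE 0.09, limma adjusted p = 0.210). Adamts4, an aggrecanase, was not well above background on any array.

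SOX and NFI proteins are transcription factors known from the chicken gene to act on the matrilin-1 promoter in chondrocytes. The 6 with a tested probe all had a negative difference (median -0.15, 0 called), as did 5988 of 12207 tested named genes. Of the 6, 2 had an unadjusted p under 0.05 by limma, against 13.9% of all tested named genes. The groups did not overlap in 3 of the 6, against 23.3% of all tested named genes. Without vehicle replicate 2 the difference of 1 of the 6 was positive. Nfix was at -0.31 (SE 0.11, limma adjusted p = 0.322) and Sox5 at -0.24 (SE 0.09, limma adjusted p = 0.362). Sox9 had no probe matched by accession.

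**Figure D3:**
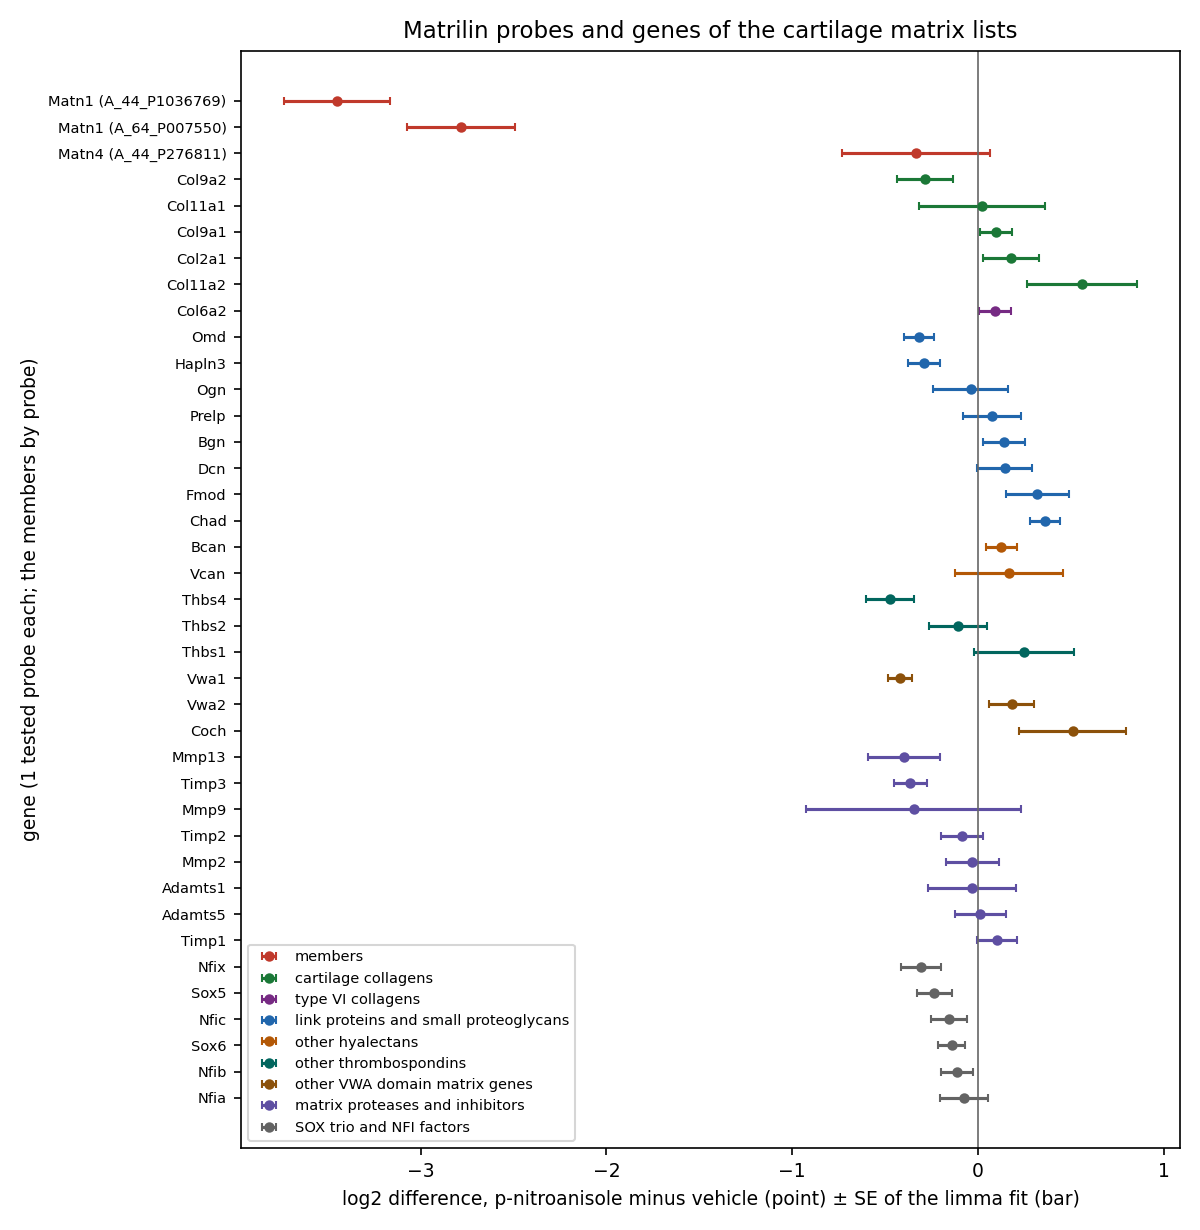
Log2 difference (p-nitroanisole minus vehicle, point) with the SE of the limma fit (bar) for the 3 tested matrilin probes and the 36 tested genes of the matrix and regulator lists, coloured by list. The 2 Matn1 probes lie at -3.45 and -2.78, and the 36 list genes between -0.47 and 0.56.

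The genes beside Matn1 on the chromosome were measured too. The 2 nearest protein-coding genes on each side in the RefSeq order are Sdc3 and Laptm5, and Ptpru and Mecr. All 4 had a tested probe and limma called 0 of them. Laptm5, a lysosomal membrane protein of blood cells and the next gene on one side, had levels of 746%, 827% and 633% in treated replicates 1, 2 and 3, against 844%, 915% and 854% in vehicle replicates 1, 2 and 3. Its treated animals were all slightly lower, with a log2 difference of -0.25 (SE 0.11, limma adjusted p = 0.405; -0.15 within slide 1). Ptpru, a receptor tyrosine phosphatase and the next gene on the other side, was at 0.31 (SE 0.12, limma adjusted p = 0.342). Sdc3 was at 0.24 (0.14 within slide 1) and Mecr at 0.12 in log2 difference. These are values of each gene's brightest tested probe, and the other probes did not all have the same sign: Ptpru was at -0.14 and -0.07 and Sdc3 at 0.15 and -0.05 on their other probes. On the brightest probes all treated animals were above all vehicle animals for Ptpru and Mecr, and the groups of Sdc3 overlapped. Over the array the groups did not overlap in 21.9% of the tested probes.

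**Figure D4:**
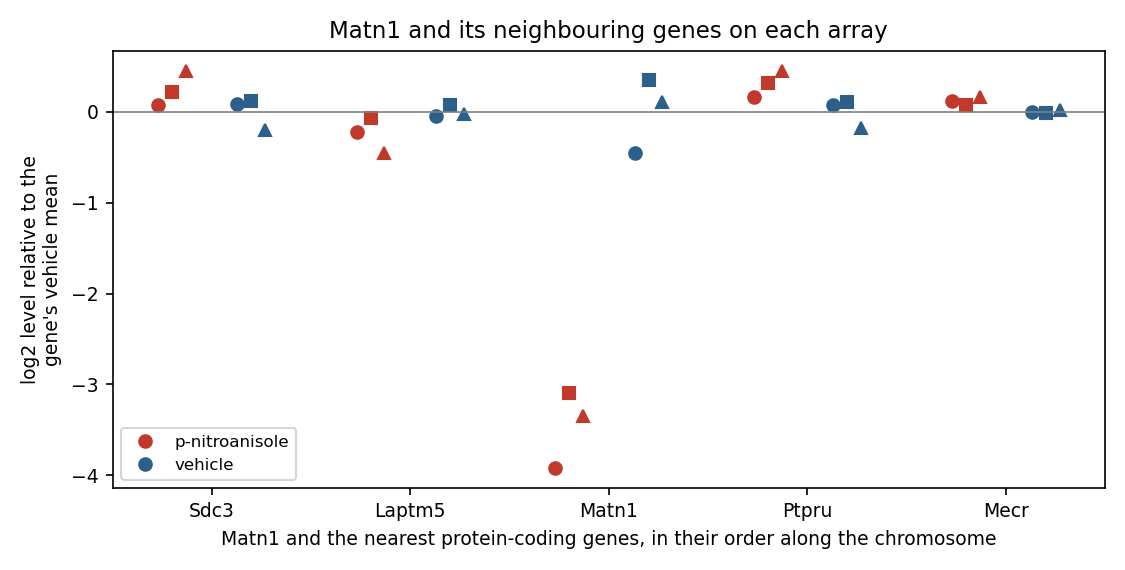
Log2 level of Matn1 (brighter probe) and of the 2 nearest protein-coding genes on each side, relative to each gene's vehicle mean, with p-nitroanisole animals in red and vehicle animals in blue (circle, square and triangle for replicates 1, 2 and 3). The 3 treated animals are more than 3 log2 units below the vehicle mean for Matn1 and close to it for the 4 neighbours.

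The tested named genes were ranked by how closely their profile over the 6 arrays followed that of the brighter Matn1 probe, as the root mean square difference of log2 levels, each relative to its vehicle mean. The second Matn1 probe had a value of 0.67, and the median over 12206 named genes was 2.47. A flat profile at the vehicle mean would have 2.46, so the measure follows mainly the group difference by which Matn1 was chosen, and the ranking is a description. The 5 nearest genes were Rd3l at 1.11, Ly49s7 at 1.29, Vom1r76 at 1.31, Or4m1 at 1.37 and Klra1 at 1.42. Ly49s7 and Klra1 belong to the killer lectin receptor family of natural killer cells, whose members can share probe sequence and may not be told apart. Ly49s7 read 9.37%, 13.3% and 3.04% in treated replicates 1, 2 and 3, against 17.9%, 32.2% and 36.0% in vehicle replicates 1, 2 and 3. Rd3l, Or4m1 and Klra1 were not well above background on any treated array. Their vehicle means were about 1.35-fold, 1.67-fold and 1.79-fold higher than the limit there, which is not a strict one. These genes and Vom1r76 entered the tested set only through the vehicle arrays.

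Markers of other cells that the tissue could hold were measured beside Matn1, and the chondrocyte and fibroblast lists had the opposite sign. All 5 tested chondrocyte markers had a positive difference (median log2 difference 0.22, 0 called), with a summed level of 120% to 133% in treated and 72.8% to 116% in vehicle animals. Over the array 6219 of 12207 tested named genes had a positive difference. Col11a2, Col2a1, Col9a1 and Chad are also in the matrix lists above. Col11a2 made up most of the summed level, with a mean of 89.3% in treated and 63.8% in vehicle animals. Col9a2, a cartilage collagen outside this list, was at -0.28. With quantile or median scaling all 5 markers were positive as well. All 6 tested fibroblast markers had a positive difference under these scalings and the reported one (median 0.17, 0 called), with a summed level of 3220% to 3516% in treated and 2744% to 3211% in vehicle animals. Pdgfrb, a receptor of pericytes and fibroblasts, was at 0.35 (SE 0.09, limma adjusted p = 0.213). Of 2 tested adipocyte markers the adiponectin gene Adipoq was at -0.70 (SE 0.26, limma adjusted p = 0.333) and Cfd, the gene of adipsin, at 0.56 (SE 0.28, limma adjusted p = 0.445), with a summed level of 57.1% to 102% in treated and 111% to 130% in vehicle animals. Adipoq made up most of this sum, with a mean of 70.0% in treated and 110% in vehicle animals. Cfd went the other way, with a mean of 16.1% in treated and 10.4% in vehicle animals. Adipoq was at -0.41 within slide 1 and Cfd at 0.24 without p-nitroanisole replicate 1. Their part in the difference of Matn1 was not tested.

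The remaining markers were near 0 in median log2 difference, with 0 called. The median was 0.07 for 8 proximal tubule genes, -0.06 for 4 podocyte genes, -0.01 for 5 thick limb and medulla genes, 0.00370 for 4 urothelium genes and 0.06 for 2 skeletal muscle genes. With quantile scaling the proximal tubule, urothelium and skeletal muscle medians were -0.01, -0.06 and -0.02, and with median scaling the urothelium median was -0.05. In the first of these lists, Gatm, an enzyme of creatine synthesis, was at 0.46 (SE 0.15, limma adjusted p = 0.298). Slc22a6, an organic anion transporter of the basolateral membrane, was at 0.18 (SE 0.06, limma adjusted p = 0.316), and at 0.03 with quantile scaling.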

How the data were processed

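RNA of the renal cortex of 6 rats was hybridised to 1-colour Agilent arrays of a design for the rn4 genome, per the file headers. The intensities in the deposited scanner files come from Feature Extraction 10.7.1.1 (given as 10.7 in the submitters' processing notes). The scanner software had subtracted and spatially detrended the background, per the file headers, and applied no scaling between arrays. The deposited series matrix holds the same intensities divided by 1 constant per array, to within 0.00497%, with column medians of 0.109, 0.108 and 0.111 for treated and 0.105, 0.105 and 0.105 for vehicle arrays.

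Symbols came by accession from the RefSeq table of GRCr8, a build other than that of the array, so no coordinates are given. It named 28206 probes (45.84%). Of 62976 spots per array, 1439 control spots and 0 to 4 spots with outlier flags were left out, and 0 spots were saturated. Log2 intensity, floored at 1, minus the array's 75th percentile was fitted in R 4.3.3 with limma 3.58.1 (lmFit, eBayes, two-sided), with every probe as a row and Benjamini-Hochberg adjustment over all rows at 0.05. Testing was limited to probes that all 3 arrays of either group placed well above background. The fit was tested on simulated data. Differences are p-nitroanisole minus vehicle. Folds of Comp, Rd3l, Or4m1 and Klra1 set the brighter group's mean against a limit for the dim group. Per array, that limit was the higher of the dimmest spot well above background and the probe's own signal. Some spots above that dimmest spot were not called well above background, so these folds are not strict lower bounds.

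The members, the 17 gene lists and the tests were chosen with earlier results of these data known. Named were all member probes, list members with the largest differences (up to 4, or 2 for cell type lists), 4 neighbouring genes and the 5 genes nearest in profile; some genes that fell under this rule are not reported here. Precision is limited by having 3 arrays per group. Replicate numbers do not pair the samples, since the deviations of same-numbered samples from their group means correlated at -0.00790, 0.0368 and -0.0108. Alternatives were the series matrix values, scaling by quantiles or by the median, other filters, 1 row per gene, a trended robust variance, blocks for slide and for replicate number, leaving out each array, and 0.01 as the threshold. Normexp on the median signals (offset 50) was added after the files were seen.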

Additional observations from a re-analysis of the deposited data

How the results depend on the processing

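The Matn1 difference kept its direction under each alternative that held its row, 17 on the brighter and 15 on the dimmer probe. Its groups did not overlap on either probe, so leaving out an array could not change the direction. On the brighter probe the filters, 1 row per gene, the trended robust variance and the replicate block left the estimate at -3.45. The slide block, slide 1 alone and leaving out p-nitroanisole replicate 3 shared the estimate of -3.51. Normexp on the median signals, chosen after the data were seen in place of a version on the mean signals that was not run because the files used here hold no such column, gave -2.67 on the brighter and -1.02 on the dimmer probe. Leaving out 1 array gave -3.68 to -3.22 on the brighter and -3.02 to -2.54 on the dimmer probe. Matn4 turned to 0.0610 with normexp and to 0.12 without p-nitroanisole replicate 2, and ran from -0.69 to 0.12 over the fits that left out 1 array. The difference of Vcan was -0.0787 within slide 1, with the slide as a block and without p-nitroanisole replicate 3, and -0.0787 to 0.43 over the fits that left out 1 array. The Vwa1 difference passed the threshold with a trended robust variance (adjusted p = 0.0337).

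The number of probes called over the array moved most. Against 30 it was 119 with normexp, 2 with no filter on dim probes, 50 when all 6 arrays had to be well above background, 398 with a trended robust variance, 9 with the slide as a block, 13 within slide 1 and 0 at a threshold of 0.01 (5539 at an unadjusted p under 0.05). With the replicate block it was 1, and the best-correlated vehicle animal shared the number of 1 of the 3 treated animals. Leaving out 1 array gave 0 to 13. No probe of Matn4, Comp or Acan was called under any of these settings. Comp and Acan entered the test with no filter on dim probes, and Comp also without p-nitroanisole replicate 2. Signal near background limits the dimmer Matn1 probe, Matn4, Comp and Acan.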
